A study of Mus musculus with 44 samples.

Results

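The genes described here are 10 targets of the transcription factor p53: Cdkn1a, Mdm2, Ccng1, Trp53inp1, Eda2r, Phlda3, Aen, Bax, Zmat3 and Sesn2. They were taken by name from a table of read counts in mouse liver, in which Ensembl identifiers were matched to mouse symbols. All 10 were found among 35249 genes, and all 10 were among the 14862 genes that passed a filter on low counts. The liver RNA-seq came from 44 libraries in 9 groups, each a genotype on a diet. The series is named for necroptosis, a form of lytic cell death with inflammation, and liver cancer. Wild type (WT), Ripk3-/- (Ripk3KO) and Mlkl-/- (MlklKO) mice were put on their diet at 2 months of age and kept on it for 6 months. Ripk3 encodes a kinase of necroptosis, and Mlkl encodes the protein that ruptures the membrane at its end. Controls ate normal chow. The other diets both lacked choline, a nutrient needed to export fat from the liver, and were either low in fat (CD-LFD) or high in fat (CD-HFD). WT mice gave 6 libraries on each diet. Ripk3KO mice gave 6 on control, 3 on CD-LFD and 4 on CD-HFD, and MlklKO mice gave 6, 4 and 3. The labels name no sex, strain, cage or batch and no source of the knockout lines, and treat each library as a separate sample, so p-values measure the spread between these samples.

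The p53 protein is held at a low level by ubiquitination, and is stabilised when DNA damage, oncogene activity or metabolic stress blocks its turnover. It then binds paired copies of a short motif near its target genes and raises their transcription. Its targets arrest the cell cycle, repair DNA, restrain growth signals or prime cells for death, and some feed back on p53. In liver the pathway is known for limiting the growth of damaged hepatocytes. Most of these genes also answer to other factors, so their mRNA is not a measure of p53 activity alone.

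Promoter sequence was read for the members that the RefSeq table holds (mouse build GRCm38.p6), because these are the stretches through which p53 could act close to the gene. The count table was made on GRCm39, per the submitters' processing notes, so the coordinates belong to the promoter sequences only. Entries existed for 8 of 10 members and gave 10 windows, each from 250 bases before to 50 bases after a transcription start. The 10-base p53 consensus motif was searched on both strands, which give the same matches because the consensus reads the same on each. It was found in 8.36% of all 32851 windows in the table. A pair of these motifs, 0 to 13 bases apart, was found in 24 windows, or 0.0731%. Cdkn1a had the only member window with such a pair. It is shown from 20 bases before the first motif to 20 bases after the last (chr17:29090886-29090957, plus strand), with both motifs in capitals.

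Cdkn1a: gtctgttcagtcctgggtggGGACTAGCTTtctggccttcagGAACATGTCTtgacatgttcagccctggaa

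The pair lay upstream of the start of that window, with its first base at position -73. The second Cdkn1a window, around another start (chr17:29093519-29093818, plus strand), held no motif. Single matches lay in windows of 4 other members, shown with 10 bases on each side and the match in capitals, since they are the members that share this feature with Cdkn1a.

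Mdm2: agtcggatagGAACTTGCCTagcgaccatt

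Ccng1: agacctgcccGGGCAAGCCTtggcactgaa

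Aen: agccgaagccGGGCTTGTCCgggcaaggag

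Bax: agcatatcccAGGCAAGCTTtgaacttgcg

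These stretches are chr10:117710925-117710954 (Mdm2, minus strand), chr11:40755452-40755481 (Ccng1, minus strand), chr7:78895927-78895956 (Aen, plus strand) and chr7:45467080-45467109 (Bax, minus strand). The windows of Eda2r, Phlda3 and Sesn2 held no match of these letters, which says nothing about binding elsewhere.

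Values below are CPM (read counts scaled to a common library total) after TMM, which corrects for library composition. Library totals were 2476268 to 12471844 counts in 43 libraries and 88204703 in WT CD-LFD replicate 3. CPM is not divided by gene length, so levels are compared within a gene only. The targeted gene was low in most knockout libraries. Ripk3 was 0.511 to 4.89 CPM in WT control and 1.12 to 4.44 CPM in WT on the other diets. It was at most 1.26 CPM in Ripk3KO libraries, and that value, inside the WT range, came from the library labelled control replicate 5. Mlkl was 1.46 to 4.83 CPM in MlklKO libraries except the library labelled CD-HFD replicate 1, at 12.5 CPM, near the 14.3 to 17.7 CPM of WT on that diet. These 2 libraries are in doubt as knockouts, and without both the counts of members called were the same in all 9 comparisons that use either. WT control replicates 5 and 6 stood apart in several genes, Bax and Mdm2 among them. The ratio of the clock genes Arntl and Dbp, which swing in opposite phase over the day, was high in 11 libraries: 4 of 6 WT control, 6 of 6 WT CD-LFD and 1 of 6 WT CD-HFD. It was high in no knockout library, so this ratio and genotype move together. Hepatocyte markers were strongly expressed in every group, with sums of 52888 CPM or more over 7 genes.

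**Figure D1:**
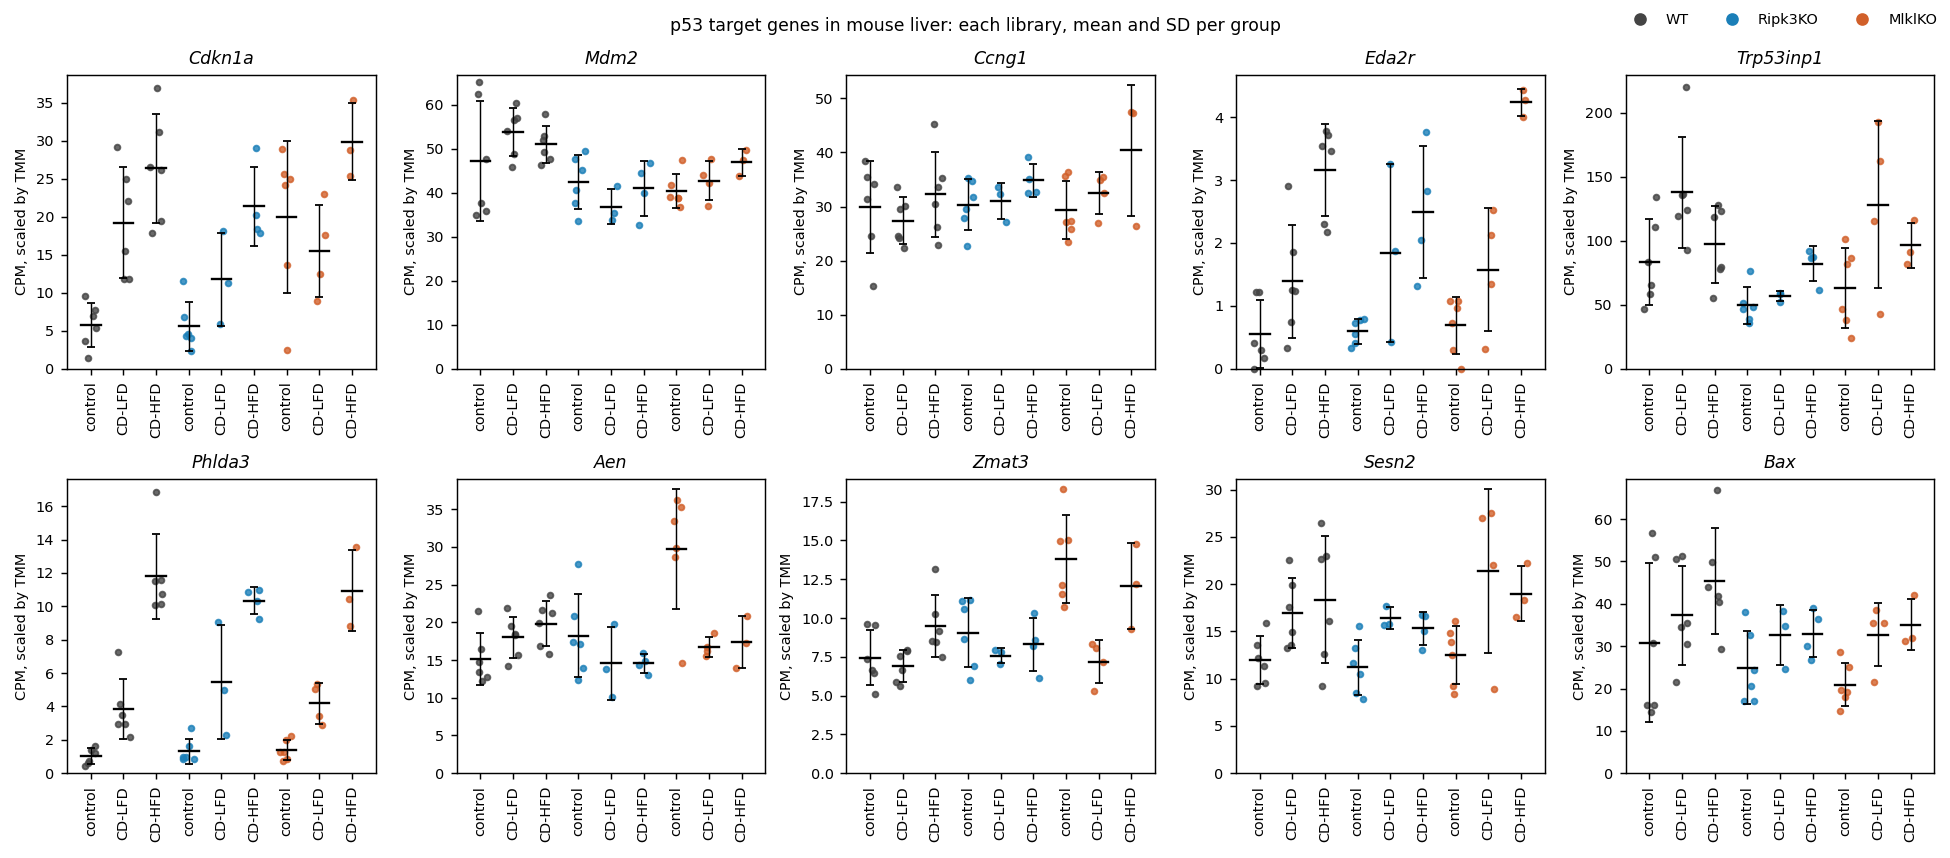
CPM (scaled by TMM, linear axis from 0) of the 10 p53 target genes in each of 44 libraries, by diet and coloured by genotype, with the group mean as a line and the SD as a bar. Phlda3 is near 1 CPM in the control groups and near 11 CPM in the CD-HFD groups of all 3 genotypes, while Mdm2 and Ccng1 change little.

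In WT liver, Cdkn1a and Phlda3 were higher on both choline-deficient diets than on control, and Eda2r and Sesn2 were higher on CD-HFD, while the feedback genes Mdm2 and Ccng1 passed no test. Cdkn1a encodes p21, the inhibitor of cyclin-dependent kinases that holds cells in arrest. Its lowest, median and highest values were 1.47, 6.14 and 9.53 CPM in the 6 control libraries, 11.8, 18.8 and 29.2 CPM in the 6 CD-LFD libraries, and 17.9, 26.4 and 36.9 CPM in the 6 CD-HFD libraries. Every library on either diet was above every control library. The log2 change was 2.17 ± 0.39 (SE) on CD-HFD, a 4.49-fold rise (adjusted p = 1.20e-05, edgeR quasi-likelihood test, Benjamini-Hochberg over all genes), and 1.70 ± 0.39 on CD-LFD, a 3.25-fold rise (adjusted p = 0.00104).

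Phlda3 encodes a pleckstrin-homology protein that competes with the survival kinase Akt for membrane lipid. Its lowest, median and highest values were 0.456, 0.977 and 1.66 CPM on control, 2.17, 3.23 and 7.24 CPM on CD-LFD, and 10.1, 11.1 and 16.8 CPM on CD-HFD. The 3 diets formed separate ranges in that order. The log2 change was 3.39 ± 0.33 on CD-HFD (10.5-fold, adjusted p = 3.86e-11, edgeR), the largest of the 10 members, and 1.73 ± 0.35 on CD-LFD (adjusted p = 0.000252). Between the choline-deficient diets it was 1.66 ± 0.26 higher on CD-HFD (adjusted p = 9.47e-06).

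Eda2r encodes a TNF receptor family member that binds the A2 form of ectodysplasin. It was rare, with 0 to 5 counts per WT control library. Lowest, median and highest values were 0, 0.361 and 1.22 CPM on control, 0.334, 1.25 and 2.90 CPM on CD-LFD, and 2.17, 3.50 and 3.77 CPM on CD-HFD. All CD-HFD values lay above all control values, and the CD-LFD values overlapped both. The log2 change was 2.45 ± 0.52 on CD-HFD (5.46-fold, adjusted p = 0.000145, edgeR) and 1.23 ± 0.56 on CD-LFD (adjusted p = 0.0918). Without WT control replicate 6 the CD-LFD change passed (1.58, adjusted p = 0.0406). The rise from CD-LFD to CD-HFD was 1.22 ± 0.41 (adjusted p = 0.0290), and left the threshold without any 1 of CD-LFD replicates 1, 3, 4 and 5 or CD-HFD replicates 2 and 3 (adjusted p of 0.0532 to 0.0778 in those 6 fits). It was also lost with the clock class as a term (1.17, adjusted p = 0.209), a class that was high in 6 of 6 CD-LFD and 1 of 6 CD-HFD libraries.

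Sesn2 encodes a stress sensor that restrains the growth kinase complex mTORC1. Its lowest, median and highest values were 9.19, 11.8 and 15.9 CPM on control and 9.26, 19.4 and 26.4 CPM on CD-HFD, and the groups overlapped. The log2 change of 0.60 ± 0.23 passed (adjusted p = 0.0283, edgeR), but not without control replicate 3 or 5 or CD-HFD replicate 1, 2 or 6 (0.47 to 0.56, adjusted p of 0.0538 to 0.0978). It was also lost with the clock class as a term (0.48, adjusted p = 0.146), without WT control replicates 5 and 6 (0.55, adjusted p = 0.0706) and with only the compared groups fitted (0.62, adjusted p = 0.0604). On CD-LFD it was 0.49 ± 0.23 (adjusted p = 0.110). The most alike gene over 44 libraries was Trib3, a target of the integrated stress response (Pearson r of log2 CPM 0.785, a description over libraries that share diets and depth). Of the 10 genes listed for that response, 6 were higher and 0 lower on CD-HFD in WT, where 47.7% of all genes were called (23.5% higher). There 4 were higher and 1 lower in Ripk3KO (46.3% of all genes called, 24.6% higher) and in MlklKO (45.2%, 24.9% higher). On CD-LFD 7 were higher in WT, beside 27.7% of all genes (13.7% higher), and 6 in Ripk3KO (24.1%, 14.0% higher) and in MlklKO (37.9%, 19.7% higher), with 0 lower. Whether these genes and Sesn2 are linked was not tested. In WT, Trib3 had a median of 5.57 CPM on control, 36.9 CPM on CD-LFD and 36.0 CPM on CD-HFD.

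Mdm2 encodes the ligase that ubiquitinates p53. Its values were 34.9 to 65.3 CPM on control, 45.8 to 60.3 CPM on CD-LFD and 46.4 to 57.9 CPM on CD-HFD in WT. The control range enclosed the other 2, with log2 changes of 0.19 ± 0.13 and 0.12 ± 0.13 (adjusted p = 0.278 and 0.475, edgeR). The highest control values, 62.5 and 65.3 CPM, belonged to replicates 5 and 6. Without both of these, Mdm2 passed on both diets (0.47 and 0.39, adjusted p = 0.00210 and 0.00597).

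Bax, the pore-forming protein of mitochondrial cell death, followed the same pattern of control libraries. It was 14.5, 16.0, 16.1 and 30.7 CPM in control replicates 3, 1, 2 and 4, and 56.6 and 51.1 CPM in replicates 5 and 6. On CD-HFD it was 29.3 to 66.8 CPM, and the groups overlapped through replicates 4, 5 and 6. The change was 0.59 ± 0.27 (adjusted p = 0.0658, edgeR), and it passed without control replicate 5 (0.84, adjusted p = 0.00885), control replicate 6 (0.82, adjusted p = 0.0115) or CD-HFD replicate 3 (0.69, adjusted p = 0.0367). Without both control replicates it was 1.26 (adjusted p = 9.31e-05), in the low clock class 1.12 (0.00467) and with no count filter 0.68 (0.0336).

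Ccng1, encoding cyclin G1, which recruits a phosphatase to Mdm2, was 15.4 to 38.4 CPM on control and 22.8 to 45.2 CPM on CD-HFD in WT, with overlapping groups (0.10 ± 0.17, adjusted p = 0.642, edgeR). Trp53inp1 encodes a nuclear stress protein that assists p53. It was 47.0, 74.7 and 134.0 CPM (lowest, median, highest) on control and 92.6, 130 and 220.0 CPM on CD-LFD. That change, 0.72 ± 0.29, missed the threshold (adjusted p = 0.0592) and passed without control replicate 1 or 3 or CD-LFD replicate 3 or 5 (adjusted p of 0.0251 to 0.0497), and with RLE size factors (another scaling of libraries), DESeq2 or no count filter (0.0362 to 0.0476). Aen, an apoptosis-enhancing nuclease, and Zmat3, a zinc-finger protein that binds RNA, changed by 0.38 ± 0.18 and 0.37 ± 0.18 on CD-HFD (adjusted p = 0.0902 and 0.0912). Both passed without control replicate 2 (0.50 and 0.46, adjusted p = 0.0303 and 0.0479), with RLE size factors and with DESeq2 (0.44 to 0.45, adjusted p of 0.0349 to 0.0422). Zmat3 was 0.45 ± 0.17 higher on CD-HFD than on CD-LFD (adjusted p = 0.0601) and passed without CD-HFD replicate 5 (0.51, adjusted p = 0.0377), with RLE size factors (0.0359) and with DESeq2 (0.0264).

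In all, 4 of 10 members were higher on CD-HFD than on control in WT, 2 on CD-LFD, and 2 on CD-HFD than on CD-LFD, and 0 were lower. Of all 14862 genes, 47.7% passed on CD-HFD (23.5% higher), 27.7% on CD-LFD (13.7% higher) and 21.1% between those diets (13.7% higher). The counts of 4, 2 and 2 lie below the shares called in either direction and above those called higher, and are no result about the members. The sizes of Phlda3, Eda2r and Cdkn1a, from 2.17 to 3.39 on the log2 scale, stand beside a median of -0.07 over all genes. They were at the 96.4, 92.3 and 90.7 percentiles of the changes of all genes, so many other genes rose as much or more.

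Cell type markers moved with these members. From control to CD-HFD in WT, the summed CPM of 6 cholangiocyte markers went from 45.3 to 84.0 up to 684 to 1135. The sum of 7 macrophage markers went from 168 to 217 up to 714 to 1813, and that of 6 stellate cell and fibroblast markers from 181 to 221 up to 646 to 1195. The sum of 15 proliferation markers rose from 17.7 to 33.5 up to 90.4 to 127, while 7 hepatocyte markers fell from 86041 to 151872 down to 52888 to 88521. Over 6 endothelial markers the sum was 156 to 202 CPM on control and 71.9 to 120 CPM on CD-HFD, and over 6 T and B cell markers 1.47 to 8.55 and 7.46 to 15.7 CPM. On CD-LFD in WT the cholangiocyte sum was 121 to 350 CPM, the macrophage sum 188 to 310 CPM and the proliferation sum 48.2 to 82.0 CPM. No marker was at 0 in every library of a WT group. The genes most alike to Phlda3 over 44 libraries were Basp1 (r = 0.943) and Capg (r = 0.939), and those most alike to Eda2r were Ddr1 (0.830) and Casp12 (0.8291). In whole liver, a change in the number of cells of a type cannot be told apart from a change in RNA per cell. The part of cell composition in the members' rises was not tested.

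Among the other members, the closest genes were Relb (r = 0.849) and Ier5 (0.835) for Cdkn1a, Ago2 (0.853) and Pak2 (0.822) for Zmat3, and Polr3d (0.834) and Ncdn (0.797) for Aen. Cdc42 and Nptn (both 0.806) were closest to Ccng1, Abca8b (0.764) and Irf2bp2 (0.752) to Trp53inp1, Dnase1l2 (0.750) and Zrsr2 (0.734) to Mdm2, and Ip6k2 (0.682) came second for Sesn2. These were among the highest of 11086 genes for the member named, over 44 libraries that share groups, and are descriptions only.

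**Figure D2:**
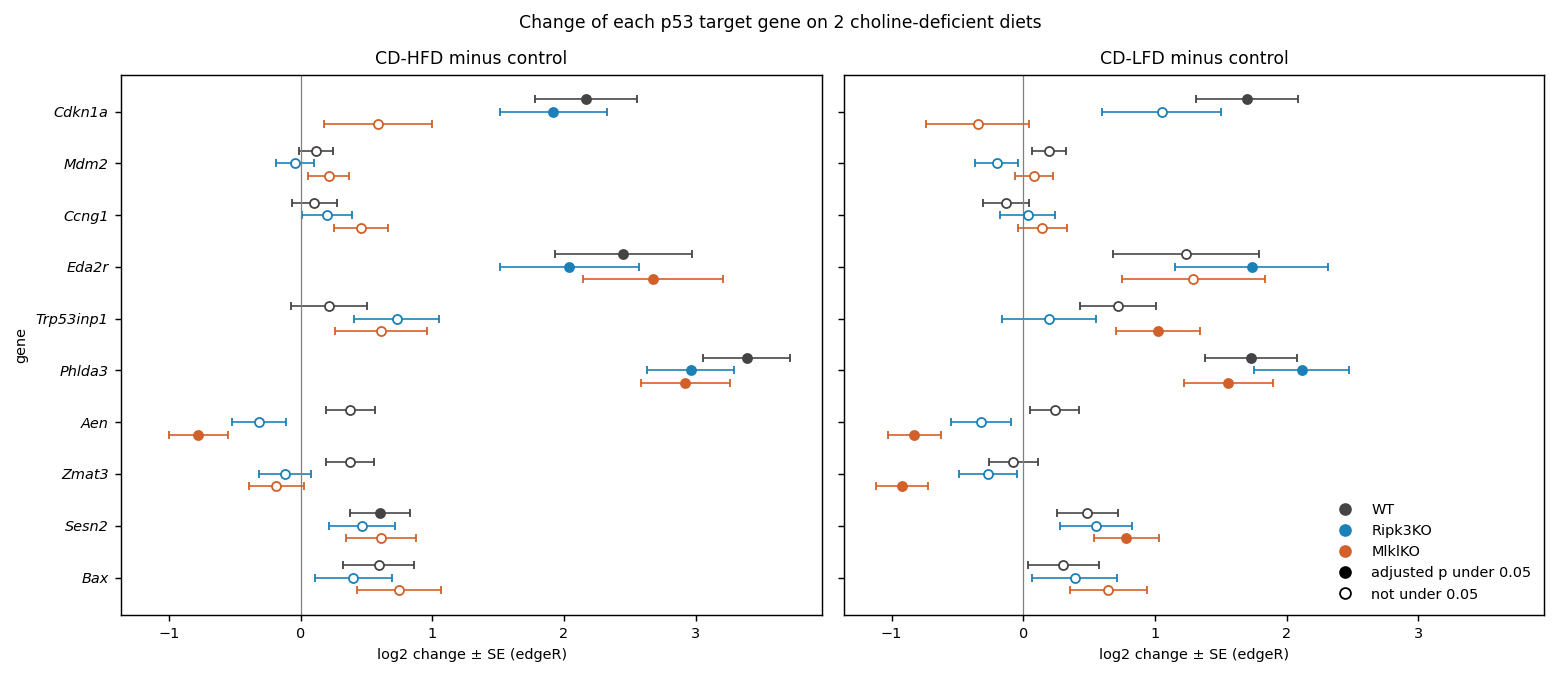
Log2 change (± SE, edgeR) of each p53 target gene from control to CD-HFD (left) and to CD-LFD (right) in WT, Ripk3KO and MlklKO liver, with filled points where the adjusted p was under 0.05. Phlda3 is filled in all 6 places, from 1.56 to 3.39, while Cdkn1a lies near or below 0.6 in MlklKO and Aen lies below 0 there.

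In Ripk3KO liver, Phlda3, Cdkn1a and Eda2r were called on CD-HFD, and Phlda3 and Eda2r on CD-LFD. Cdkn1a was 2.37, 4.44 and 11.6 CPM (lowest, median, highest) on control. It was 5.90, 11.3 and 18.1 CPM in the 3 CD-LFD libraries and 17.8, 18.4, 20.3 and 29.0 CPM in the 4 CD-HFD libraries. The CD-HFD values lay above all control values and the CD-LFD values overlapped them. The change was 1.92 ± 0.40 on CD-HFD (3.78-fold, adjusted p = 0.000144, edgeR) and 1.05 ± 0.45 on CD-LFD (adjusted p = 0.0847), where it passed without control replicate 3 (1.41, adjusted p = 0.0286) or CD-LFD replicate 2 (1.35, adjusted p = 0.0429).

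Phlda3 in Ripk3KO liver was 0.838 to 2.72 CPM on control, 2.32, 5.0 and 9.07 CPM on CD-LFD and 9.21, 10.3, 10.8 and 11.0 CPM on CD-HFD. It rose by 2.96 ± 0.33 on CD-HFD (adjusted p = 9.89e-10, edgeR) and by 2.11 ± 0.36 on CD-LFD (adjusted p = 3.59e-05). Eda2r rose by 2.04 ± 0.53 on CD-HFD (1.32 to 3.76 CPM against 0.326 to 0.788 CPM on control, adjusted p = 0.00157). On CD-LFD, Eda2r was 0.422, 1.87 and 3.25 CPM and passed (1.74 ± 0.58, adjusted p = 0.0257). That call was lost without CD-LFD replicate 3 (0.94, adjusted p = 0.4665) or control replicate 3 (1.60, adjusted p = 0.0567), and without CD-LFD replicate 3 the change of Phlda3 was 1.47 (adjusted p = 0.0232). The cholangiocyte marker sum was 47.2 to 99.1 CPM on control, 64.3 to 569 CPM on CD-LFD and 632 to 1188 CPM on CD-HFD, and the macrophage sum 61.0 to 391, 258 to 336 and 988 to 1432 CPM. Their part in these values was not tested.

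The counts in Ripk3KO were 3 of 10 members higher on CD-HFD and 2 on CD-LFD, with 0 lower. Shares over all genes were 46.3% (24.6% higher) and 24.1% (14.0% higher). Between CD-HFD and CD-LFD, 0 members passed by edgeR and 0 by DESeq2, 1 (Phlda3) had an unadjusted p under 0.05, and 8.83% of all genes passed. Phlda3 passed there without CD-LFD replicate 3 (1.49, adjusted p = 0.0160). Trp53inp1 changed by 0.73 ± 0.32 on CD-HFD (35.8 to 76.3 CPM on control, 61.8 to 92.3 CPM on CD-HFD, adjusted p = 0.0598) and passed without control replicate 3 (0.89, adjusted p = 0.0273). It also passed with RLE size factors, DESeq2, no count filter, the clock class as a term, only the compared groups fitted or the low clock class alone (0.73 to 0.81, adjusted p of 0.00512 to 0.0493).

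In MlklKO liver, Cdkn1a, Aen and Zmat3 had higher control values than in WT, and none of these was called higher than control on either choline-deficient diet. Phlda3 was 0.729 to 2.24 CPM on control, 2.89, 3.43, 5.07 and 5.34 CPM on CD-LFD and 8.80, 10.4 and 13.6 CPM on CD-HFD. The 3 diets again formed separate ranges. Phlda3 rose by 2.92 ± 0.34 on CD-HFD (adjusted p = 2.84e-09, edgeR) and 1.56 ± 0.34 on CD-LFD (adjusted p = 0.000466), and by 1.36 ± 0.34 between them (adjusted p = 0.00306). Eda2r was 0 to 1.09 CPM on control and 4.0, 4.27 and 4.44 CPM on CD-HFD, a rise of 2.68 ± 0.53 (adjusted p = 6.90e-05). On CD-LFD it was 0.321, 1.34, 2.12 and 2.53 CPM, overlapping control (1.29 ± 0.54, adjusted p = 0.0555), and passed without control replicate 1, 2 or 5 or CD-LFD replicate 3 (1.45 to 1.60), and with DESeq2 (adjusted p = 0.0320). From CD-LFD to CD-HFD it was 1.38 ± 0.53 (adjusted p = 0.0517) and passed without CD-LFD replicate 4 (1.65, adjusted p = 0.0406), with DESeq2 (0.0289), RLE size factors (0.0478) or only the compared groups fitted (0.0289).

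Cdkn1a in MlklKO liver was 24.1, 28.9, 25.0, 13.7, 25.7 and 2.54 CPM in control replicates 1 to 6. It was 8.98 to 23.0 CPM on CD-LFD and 25.4, 28.8 and 35.4 CPM on CD-HFD. Changes were -0.35 ± 0.39 on CD-LFD (adjusted p = 0.501, edgeR) and 0.59 ± 0.41 on CD-HFD (adjusted p = 0.250). Cdkn1a was 0.93 ± 0.45 higher on CD-HFD than on CD-LFD (adjusted p = 0.129), with groups that did not overlap. That difference passed with only the compared groups fitted (0.91, adjusted p = 0.0185). Aen was 28.7 to 36.2 CPM in 5 control libraries and 14.6 CPM in replicate 6. All 4 CD-LFD values (15.5 to 18.6 CPM) and all 3 CD-HFD values (14.0 to 20.9 CPM) lay below those 5. Aen fell by 0.83 ± 0.20 on CD-LFD (adjusted p = 0.00170) and by 0.78 ± 0.23 on CD-HFD (adjusted p = 0.00443). The second call was lost by a little without CD-HFD replicate 2 (-0.64, adjusted p = 0.0507).

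Zmat3 was 10.7, 13.6 and 18.3 CPM (lowest, median, highest) on control in MlklKO, 5.29 to 8.31 CPM on CD-LFD and 9.26, 12.2 and 14.8 CPM on CD-HFD. Every CD-LFD library was below every control library, while 2 of the 3 CD-HFD libraries lay among the controls and 1 below them. It fell by 0.92 ± 0.20 on CD-LFD (adjusted p = 0.000443, edgeR), and was 0.74 ± 0.23 higher on CD-HFD than on CD-LFD (adjusted p = 0.0159). That last call was lost without CD-LFD replicate 3 (0.62, adjusted p = 0.0610) or CD-HFD replicate 4 (0.56, adjusted p = 0.151), and with no count filter (0.72, adjusted p = 0.0639).

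Trp53inp1 and Sesn2 rose on CD-LFD in MlklKO. Trp53inp1 was 24.3, 64.0 and 102 CPM (lowest, median, highest) on control and 162, 193, 115 and 42.7 CPM in CD-LFD replicates 1 to 4, a change of 1.03 ± 0.32 (adjusted p = 0.0110, edgeR). Sesn2 was 8.42 to 16.1 CPM on control and 27.6, 22.1, 26.9 and 8.94 CPM in the same 4 libraries, a change of 0.78 ± 0.25 (adjusted p = 0.0116). Replicate 4 was low in both genes, inside the control range. The Trp53inp1 call was lost without CD-LFD replicate 2 (0.76, adjusted p = 0.0795) and with only the compared groups fitted (1.02, adjusted p = 0.0572), and the Sesn2 call without CD-LFD replicate 1 (0.63, adjusted p = 0.0701) or 3 (0.66, adjusted p = 0.0519).

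Ccng1 on CD-HFD was 47.4, 26.4 and 47.4 CPM in MlklKO (0.46 ± 0.20, adjusted p = 0.0633, edgeR), and passed without CD-HFD replicate 2 (0.69, adjusted p = 0.0114) or control replicate 4 or 5 (0.53 and 0.52). Bax changed by 0.74 ± 0.32 on CD-HFD (14.8 to 28.7 CPM on control, 31.3 to 42.0 CPM on CD-HFD, adjusted p = 0.0533). Its groups did not overlap, and it passed without control replicate 3 or 5 (0.80 and 0.86). Bax on CD-LFD was 0.65 ± 0.29 (adjusted p = 0.0776), and passed without control replicate 5 or CD-LFD replicate 3 (0.76 and 0.80). Sesn2 on CD-HFD was 0.61 ± 0.27 (adjusted p = 0.0608), with groups that did not overlap, and passed without control replicate 6 (0.70). Ccng1, Bax and Sesn2 on CD-HFD also passed with RLE size factors and with DESeq2 (adjusted p of 0.0212 to 0.0421). Mdm2 stayed between 36.7 and 49.6 CPM in all 13 MlklKO libraries.

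On CD-HFD, 2 of 10 members were higher and 1 lower than control in MlklKO, beside 45.2% of all genes called (24.9% higher and 20.3% lower). On CD-LFD, 3 were higher and 2 lower, beside 37.9% (19.7% higher and 18.3% lower). Between these diets 2 were higher on CD-HFD, beside 23.7% (14.6% higher). In MlklKO the CD-HFD marker sums were 727 to 1060 CPM for cholangiocyte and 1019 to 1675 CPM for macrophage markers, against 77.8 to 146 and 98.5 to 244 CPM on control. On CD-LFD these sums were 120 to 216 and 160 to 404 CPM. Hepatocyte sums on CD-LFD were 117183 to 125802 against 97557 to 112350 CPM on control, and stellate cell and fibroblast sums 295 to 524 against 147 to 226 CPM. Their part in these calls was not tested.

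The knockouts were next compared with WT on the same diet, which shows how loss of either necroptosis gene went with these members. On the control diet, 0 members passed between Ripk3KO and WT by edgeR and 0 by DESeq2, with 1 (Trp53inp1) at an unadjusted p under 0.05, and 4.47% of all genes passed. Trp53inp1 was 35.8 to 76.3 CPM in Ripk3KO and 47.0 to 134.0 CPM in WT (-0.76 ± 0.29, adjusted p = 0.133, edgeR). MlklKO differed from WT in 3 members, all higher, beside 27.1% of all genes (13.0% higher).

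**Figure D3:**
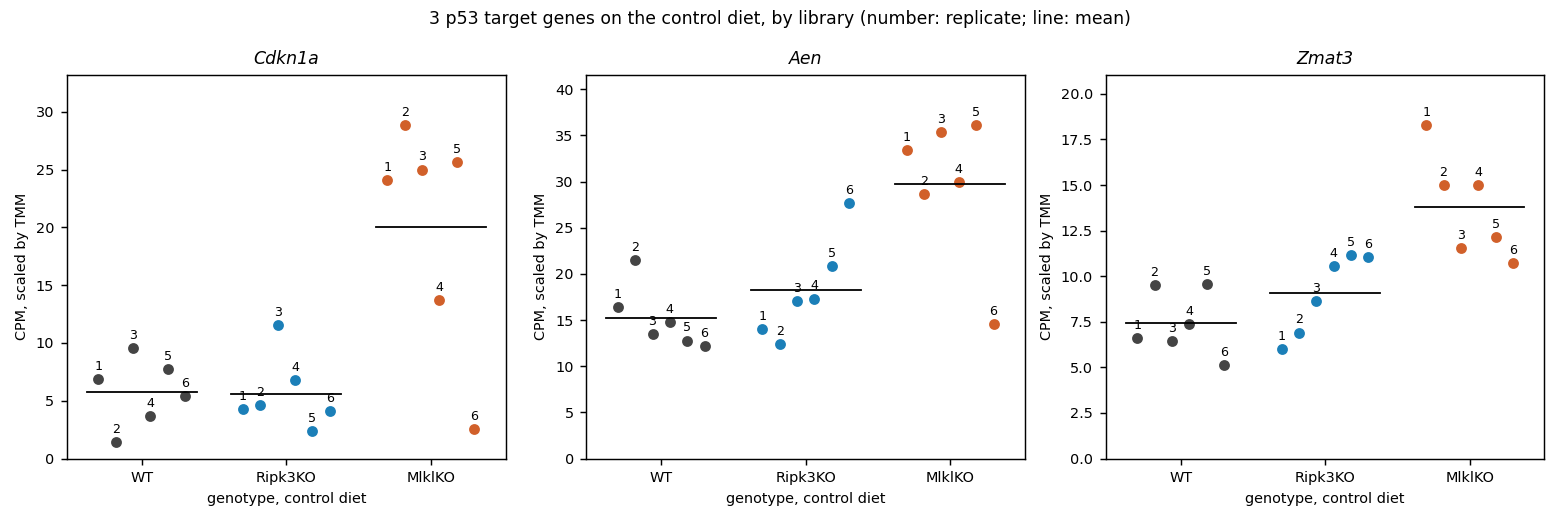
CPM (scaled by TMM, linear axis from 0) of Cdkn1a, Aen and Zmat3 in each control-diet library of the 3 genotypes, with the replicate number above each point and the group mean as a line. In MlklKO, 5 of 6 libraries lie above every WT library in all 3 genes, and replicate 6 lies among WT for Cdkn1a and Aen.

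Cdkn1a was 1.76 ± 0.39 higher in MlklKO than in WT on control, a 3.38-fold difference (adjusted p = 0.000865, edgeR). The 5 MlklKO libraries at 13.7 to 28.9 CPM were above all WT libraries (at most 9.53 CPM), and replicate 6, at 2.54 CPM, was below 5 of the 6 WT libraries. Aen was 0.96 ± 0.19 higher (adjusted p = 0.000166), with 5 of 6 MlklKO libraries above the highest WT value of 21.5 CPM. Zmat3 was 0.90 ± 0.18 higher (adjusted p = 0.000303), with all 6 MlklKO libraries (10.7 to 18.3 CPM) above all 6 WT libraries (5.13 to 9.59 CPM). Each of these calls held without any 1 library, with log2 differences of 1.56 to 1.99, 0.89 to 1.10 and 0.81 to 0.99.

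The clock genes moved with this comparison, since the Arntl to Dbp ratio was high in 4 of 6 WT control libraries and in 0 of 6 MlklKO control libraries. With the class of that ratio as a term, the differences were 2.42 for Cdkn1a (adjusted p = 0.00150, edgeR), 0.91 for Aen (adjusted p = 0.00547) and 0.83 for Zmat3 (adjusted p = 0.0104). Among the libraries with a low ratio only, which left WT control replicates 2 and 4, they were 3.02 (adjusted p = 0.00633), 0.72 (adjusted p = 0.0862) and 0.71 (adjusted p = 0.0812). Within this class the log2 ratio still differed, at -5.67 and -7.47 in those 2 WT libraries and -4.87 to -3.60 in MlklKO control. Neither fit therefore matched the ratio between the genotypes. Marker sums of MlklKO and WT on control were 98.5 to 244 against 168 to 217 CPM for macrophage and 97557 to 112350 against 86041 to 151872 CPM for hepatocyte genes. Cholangiocyte sums were 77.8 to 146 against 45.3 to 84.0 CPM (medians 92.0 and 58.8), proliferation sums 27.7 to 44.7 against 17.7 to 33.5 CPM (medians 36.6 and 27.0), and T and B cell sums 0.729 to 1.72 against 1.47 to 8.55 CPM, with 1 of those 6 genes at 0 in all MlklKO control libraries. Their part in the 3 differences was not tested. The other 7 members showed differences between -0.52 ± 0.27 (Bax, adjusted p = 0.152) and 0.35 ± 0.39 (Phlda3, adjusted p = 0.538).

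On CD-LFD, 0 members passed between Ripk3KO and WT by edgeR (1.10% of all genes) and 2 by DESeq2, Mdm2 (adjusted p = 0.0418) and Trp53inp1 (0.0261). By edgeR these were -0.55 ± 0.16 (adjusted p = 0.0961) and -1.28 ± 0.38 (0.0886), the 2 at an unadjusted p under 0.05. Trp53inp1 passed there with no count filter (0.0404) and with only the compared groups fitted (0.0127). Trp53inp1 was 52.5, 58.7 and 59.2 CPM in Ripk3KO on CD-LFD, below all 6 WT libraries at 92.6 to 220.0 CPM, and Mdm2 was 33.8, 35.4 and 41.5 CPM against 45.8 to 60.3 CPM. For MlklKO on CD-LFD, 0 passed by edgeR (2.56% of all genes) and 0 by DESeq2, with 1 (Mdm2, -0.33 ± 0.15) at an unadjusted p under 0.05. On CD-HFD, 0 passed for Ripk3KO by both tools (0.377% of all genes), with 2 (Mdm2 and Aen) at an unadjusted p under 0.05. For MlklKO on CD-HFD, 0 passed by both tools and 0 had an unadjusted p under 0.05 (0.00% of all genes passed). Cdkn1a on CD-HFD was 17.9 to 36.9 CPM in WT, 17.8 to 29.0 CPM in Ripk3KO and 25.4 to 35.4 CPM in MlklKO, and Phlda3 was 10.1 to 16.8, 9.21 to 11.0 and 8.80 to 13.6 CPM. The ranges overlapped in both genes.

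Whether a diet's effect differed by genotype was tested as an interaction. For CD-LFD, the change in MlklKO was below that in WT for 3 members, beside 8.45% of all genes (4.08% lower). These were Cdkn1a (-2.04 ± 0.56, adjusted p = 0.0168, edgeR), Aen (-1.07 ± 0.27, adjusted p = 0.0116) and Zmat3 (-0.85 ± 0.27, adjusted p = 0.0429). For Aen and Zmat3 the MlklKO control mean was the highest of these 4 groups. For Cdkn1a it was close to the WT CD-LFD mean (19.99 and 19.2 CPM), and the WT control mean of 5.79 CPM was the lowest. The CD-LFD values of MlklKO and WT overlapped in all 3 genes. The calls of Cdkn1a and Aen held without any 1 library, at -2.31 to -1.85 and -1.21 to -1.0. That of Zmat3 held in 10 of 22 such fits, with log2 values of -0.94 to -0.73, and was lost with the clock class as a term (adjusted p = 0.0508), with no count filter (0.0884) and with only the compared groups fitted (0.0629). It was lost without WT control replicates 1, 3, 4 or 6, WT CD-LFD replicates 2, 3 or 5, MlklKO control replicates 1, 2 or 4, or MlklKO CD-LFD replicates 2 or 3.

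For CD-HFD, the change of Aen was lower in MlklKO (-0.78) than in WT (0.38), an interaction of -1.15 ± 0.29 (adjusted p = 0.0174, edgeR), beside 4.12% of all genes (2.54% lower). This was lost without MlklKO CD-HFD replicate 2 (-1.02, adjusted p = 0.0848) or 4 (-1.15, adjusted p = 0.0645), and in the low clock class alone (-0.91, adjusted p = 0.139). The Cdkn1a interaction was -1.58 ± 0.58 (adjusted p = 0.109) and passed without MlklKO control replicate 6 (-1.81, adjusted p = 0.0155) and in the low clock class alone (-2.83, adjusted p = 0.0471). For Ripk3KO, 0 members passed in either interaction by edgeR or DESeq2, beside 0.0269% (CD-LFD) and 0.478% (CD-HFD) of all genes. Unadjusted p-values under 0.05 numbered 0 for CD-LFD and 1 (Aen) for CD-HFD.

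The mRNA of p53 itself, Trp53, was higher than in WT control in both WT diet groups and in MlklKO control, and passed no diet test in Ripk3KO or MlklKO. Its lowest, median and highest values were 15.4, 27.0 and 34.0 CPM in WT control, 34.2, 48.6 and 56.7 CPM in WT CD-LFD and 36.3, 42.7 and 60.8 CPM in WT CD-HFD. Both diet groups lay above all WT controls, with changes of 0.84 ± 0.18 (adjusted p = 0.000449, edgeR) and 0.79 ± 0.18 (adjusted p = 0.000288). In Ripk3KO it was 22.9 to 36.5 CPM on control and 30.2 to 39.3 CPM on CD-HFD (0.17 ± 0.19, adjusted p = 0.505). In MlklKO it was 27.0, 44.9 and 66.7 CPM on control, 0.84 ± 0.18 above WT (adjusted p = 0.000505), and 32.0 to 42.1 CPM on CD-HFD. The MlklKO interactions were -1.09 ± 0.26 for CD-LFD (adjusted p = 0.00736) and -1.13 ± 0.28 for CD-HFD (adjusted p = 0.0156). The second was lost without MlklKO CD-HFD replicate 4 (-1.05, adjusted p = 0.0775) and with only the compared groups fitted (-1.18, adjusted p = 0.0703). Transcript level is a separate quantity from p53 protein, which was not measured.

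Mdm4, the partner of Mdm2 that masks the activation domain of p53, rose on CD-LFD in WT (0.54 ± 0.18, adjusted p = 0.0237, edgeR) and in MlklKO (0.57 ± 0.20, adjusted p = 0.0237). The WT call was lost without control replicate 1, 2 or 3 or CD-LFD replicate 5 or 6 (0.44 to 0.48), with the clock class as a term (0.49, adjusted p = 0.0701) and with only the compared groups fitted (0.57, 0.139), and the MlklKO call without CD-LFD replicate 4. On CD-HFD Mdm4 was 0.32 ± 0.18 in WT (adjusted p = 0.149) and passed without control replicate 5 (0.45), 6 (0.50) or both (0.74) and in the low clock class (0.68). In Ripk3KO on CD-HFD it was 0.38 ± 0.20 (adjusted p = 0.122) and passed without control replicate 1 and in the low clock class. Gadd45a, a growth arrest gene, passed no comparison by edgeR with TMM, all libraries and no added term, and 2 by DESeq2. With library size only it passed on CD-HFD in WT (1.14, adjusted p = 0.0301, edgeR) and in MlklKO (1.72, adjusted p = 0.00803). It was 1.36, 3.91 and 21.5 CPM (lowest, median, highest) on WT control and 6.94, 8.91 and 16.5 CPM on CD-HFD (0.61 ± 0.43, adjusted p = 0.251). Without WT control replicate 4 it passed on CD-HFD (1.48) and CD-LFD (1.61) in WT, and with the clock class as a term on CD-LFD (1.34, adjusted p = 0.0331). Against WT on control it was -1.09 ± 0.48 in MlklKO (adjusted p = 0.0824), which passed without WT control replicate 1 (-1.32) or 3 (-1.34), with DESeq2 (-1.18, adjusted p = 0.0311), with the clock class as a term (-1.62, 0.0199) and in the low clock class (-2.13, 0.00189). On CD-HFD in MlklKO it was 1.20 ± 0.53 (adjusted p = 0.0614), which passed without control replicate 1, with DESeq2 (0.0399), with the clock class as a term (0.0460), with only the compared groups fitted (0.00487) and in the low clock class (0.0133). On CD-LFD in MlklKO it was 1.02 (adjusted p = 0.0965) and passed in the last 2 of these fits (0.0123 and 0.0245).

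The wider pathway was read from 5 lists of 64 genes, of which 60 were tested. On CD-HFD in WT, 19 were higher and 11 lower, with a median log2 change of 0.19. Of all genes 47.7% were called there, and here as in the comparisons that follow the list counts are descriptions, to be read beside the shares over all genes given with the members. The genes named from these lists had the largest called changes among those whose log2 CPM averaged 1 or more, and words such as largest or led hold within that limit. Some rarer genes changed more, such as Psrc1, Ckap2, Ak1 and Dram1, which rose in WT and lie to the right in the plot of pathway changes. Among other targets in arrest and growth, 5 of 10 were higher and 0 lower. Sfn, a 14-3-3 protein that holds cells before mitosis, rose by 2.34 ± 0.43 (adjusted p = 1.91e-05, edgeR). Among apoptosis targets, 5 of 13 were higher and 2 lower, and Apaf1, the scaffold of the apoptosome, rose by 1.68 ± 0.24 (adjusted p = 2.48e-07). Among metabolism, redox and autophagy targets, 4 of 14 were higher and 5 lower. Ddit4, an inhibitor of mTORC1, rose by 1.65 ± 0.33 (adjusted p = 7.75e-05), and Tap1, a peptide transporter of antigen presentation, by 1.07 ± 0.17 (adjusted p = 1.82e-06).

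The largest falls were in Pltp, which transfers phospholipid between lipoproteins (-1.95 ± 0.39, adjusted p = 7.80e-05, edgeR), the liver glutaminase Gls2 (-1.23 ± 0.18, adjusted p = 4.51e-07), the autophagy kinase Ulk1 (-0.94 ± 0.19, adjusted p = 6.77e-05) and the mitochondrial dehydrogenase Aldh4a1 (-0.80 ± 0.14, adjusted p = 9.47e-06). DNA repair and nucleotide supply had 2 of 9 higher and 0 lower, and p53 with its regulators 3 of 14 higher and 4 lower. On CD-LFD in WT, 13 of 60 were higher and 6 lower, and these 19 calls became 29 without WT control replicates 5 and 6 and 12 with only the compared groups fitted. Ddit4 (1.77 ± 0.34) and the stress kinase Plk3 (1.36 ± 0.36) led the rises, and Pltp (-2.10 ± 0.40) and Gls2 (-1.30 ± 0.18) the falls. Plk3 was lost with only the compared groups fitted (1.37, adjusted p = 0.0646). From CD-LFD to CD-HFD, 8 were higher, led by Sfn (1.26 ± 0.36) and Apaf1 (0.82 ± 0.21), and 2 lower, Ulk1 (-0.51 ± 0.19) and the p53 ubiquitin ligase Rchy1 (-0.39 ± 0.13). Ulk1 was lost in 7 of 12 and Rchy1 in 5 of 12 fits without 1 library, and both, with Sfn (1.33, adjusted p = 0.0838), with the clock class as a term. Ulk1 and Rchy1 were also lost with no count filter, and Ulk1 with RLE size factors. The count of 10 was 6 without WT CD-LFD replicate 1, 6 with no count filter, 5 with the clock class as a term and 16 with only the compared groups fitted.

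**Figure D4:**
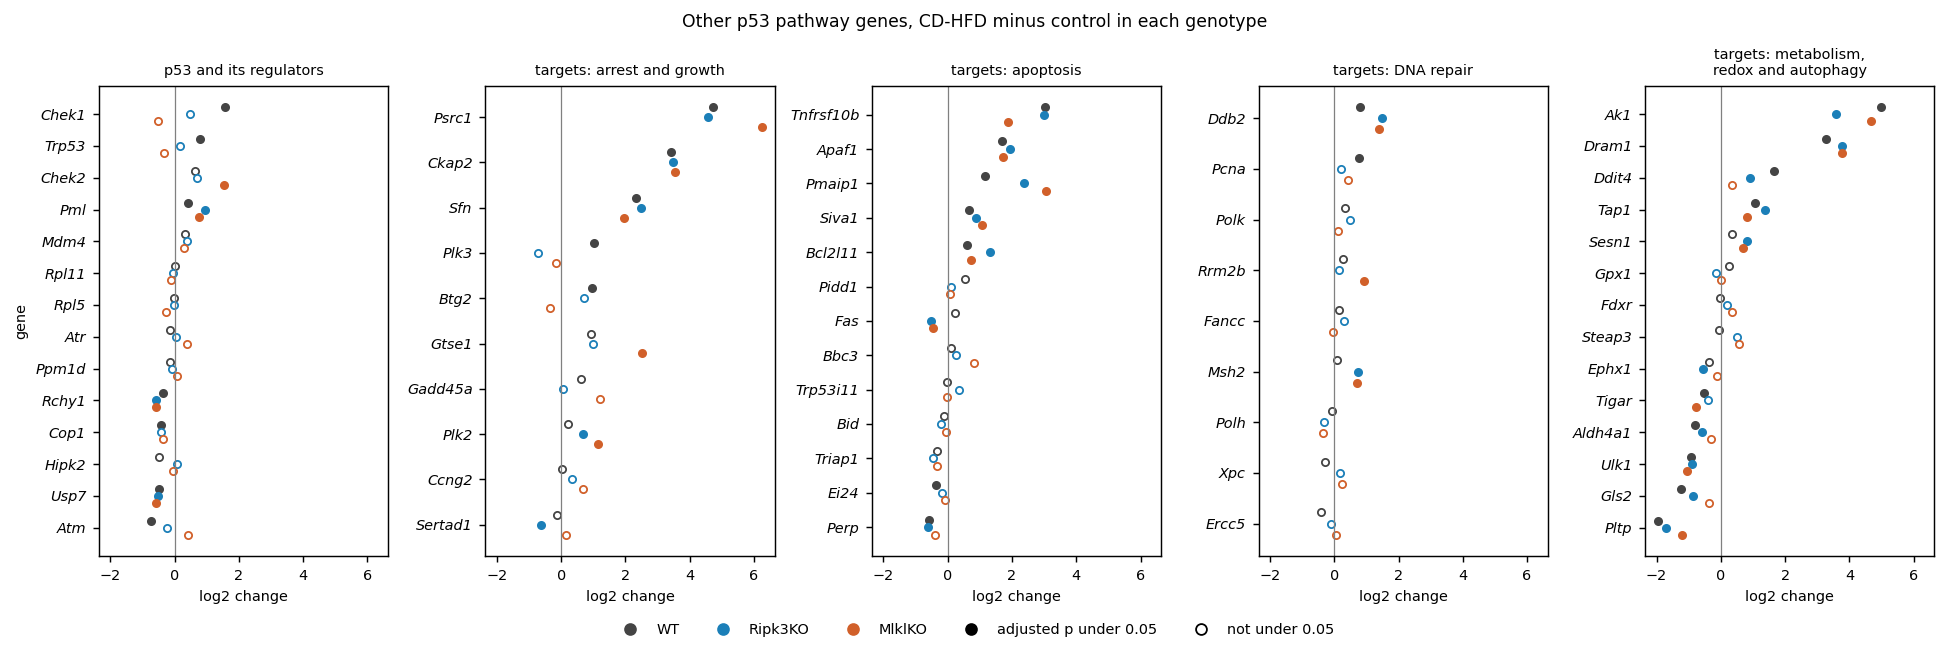
Log2 change (edgeR) from control to CD-HFD of 60 other p53 pathway genes in 5 lists, for WT, Ripk3KO and MlklKO, with filled points where the adjusted p was under 0.05 and genes ordered by their WT change within a list. In the arrest list Psrc1, Ckap2 and Sfn are filled in all 3 genotypes, while Trp53 is filled in WT only and no test is implied by that contrast.

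In Ripk3KO, 17 of 60 were higher and 10 lower on CD-HFD, and 11 and 5 on CD-LFD, where the 16 calls became 8 without CD-LFD replicate 3. Sfn (2.47 ± 0.46) and Apaf1 (1.93 ± 0.26) led the rises on CD-HFD, and Pltp (-1.70 ± 0.45) and Ulk1 (-0.91 ± 0.21) the falls. On CD-LFD these were Sfn (1.93 ± 0.51) and Apaf1 (1.21 ± 0.29), and Pltp (-2.10 ± 0.52) and Gls2 (-0.81 ± 0.23), with Sfn and Gls2 lost without CD-LFD replicate 3 and Apaf1 with only the compared groups fitted (1.20, adjusted p = 0.0522). Between the choline-deficient diets 1 was higher and 1 lower, Plk3 (-1.58 ± 0.47), which was lost in 5 of 7 fits without 1 library. The count of 2 was 1 without CD-LFD replicate 2 or CD-HFD replicate 1 or 3, 13 with only the compared groups fitted, 7 in the low clock class and 5 with DESeq2. In MlklKO, 19 were higher and 6 lower on CD-HFD. Sfn (1.96 ± 0.48) and Apaf1 (1.71 ± 0.27) led the rises, and Pltp (-1.20 ± 0.49, lost in 6 of 9 fits without 1 library, with RLE size factors, and without the 2 libraries in doubt) and Ulk1 (-1.05 ± 0.24) the falls.

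On CD-LFD in MlklKO, 15 were higher and 5 lower. Siva1, a cell death adaptor (1.14 ± 0.23), and the damage sensor Ddb2 (0.97 ± 0.33, lost without control replicate 6 or CD-LFD replicate 4) led the rises, and Pltp (-1.95 ± 0.46) and Ulk1 (-1.02 ± 0.21) the falls. Between CD-LFD and CD-HFD in MlklKO, 8 were higher and 3 lower. Apaf1 (1.22 ± 0.29) and the damage kinase Atm (1.14 ± 0.38) rose, and the glycolysis regulator Tigar (-0.79 ± 0.22) and the death receptor Fas (-0.56 ± 0.20) fell. Atm was lost in 4 of 7, Fas in 5 of 7 and Tigar in 1 of 7 fits without 1 library (CD-HFD replicate 4). Atm (adjusted p = 0.0797) and Fas (0.0584) were lost without the 2 libraries in doubt, and Fas with no count filter (0.109). The count of 11 was 7 without CD-LFD replicate 1 or 4 and 4 without CD-HFD replicate 4.

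On the control diet, 14 of the 60 differed between MlklKO and WT, 5 higher and 9 lower, beside 27.1% of all genes (13.0% higher), so the count is no result about the lists. Btg2, an antiproliferative gene (1.77 ± 0.35, adjusted p = 0.000228, edgeR), Ddit4 (1.19 ± 0.34, adjusted p = 0.00768), Trp53 and Ulk1 (0.65 ± 0.19, adjusted p = 0.00840) were highest. The lowest were Bbc3, which encodes the death protein PUMA (-1.04 ± 0.35, adjusted p = 0.0215), the kinase Plk2 (-1.04 ± 0.17, adjusted p = 2.94e-05), Siva1 (-1.01 ± 0.22, adjusted p = 0.000877) and the mitochondrial enzyme Fdxr (-0.98 ± 0.25, adjusted p = 0.00363). Bbc3 was lost without WT control replicate 6 or MlklKO control replicate 1, 4 or 5. Fdxr (-0.38, adjusted p = 0.269) and Bbc3 (-0.95, adjusted p = 0.0669) were lost without WT control replicates 5 and 6 together. With the clock class as a term, Ulk1 (adjusted p = 0.0712), Fdxr (0.0577) and Bbc3 (0.151) did not pass, and in the low clock class alone neither did these 3, Ddit4 (0.0794) and Plk2 (0.0790). With only the compared groups fitted, Ulk1 (0.0626) and Bbc3 (0.105) were lost. The count of 14 was 9 with the clock class as a term, 9 among libraries with a low ratio and 6 with only the compared groups fitted.

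Between Ripk3KO and WT on control, 1 was higher, Fas (0.73 ± 0.15, adjusted p = 0.00234, edgeR), and 1 lower, Plk2 (-0.58 ± 0.17, adjusted p = 0.0407). Fas was lost with only the compared groups fitted (0.74, adjusted p = 0.145). Plk2 was lost there too (adjusted p = 0.348), with the clock class as a term (0.479) and without any 1 of 6 libraries, and the count of 2 moved to 1 to 6 without 1 library, to 1 with no count filter, with that term or without WT control replicates 5 and 6, and to 0 with only the compared groups. On CD-LFD 1 of 60 passed for MlklKO, Gls2 (0.86 ± 0.20, adjusted p = 0.0101), lost without CD-LFD replicate 4 and with the clock class as a term (0.68, adjusted p = 0.800), a class that was high in 6 of 6 WT and 0 of 4 MlklKO CD-LFD libraries. The count of 1 was 2 with DESeq2 and 3 with only the compared groups fitted. For Ripk3KO on CD-LFD 0 of 60 passed by edgeR, 1 by DESeq2 and 1 with no count filter, with 14 at an unadjusted p under 0.05. On CD-HFD 0 passed by either tool for Ripk3KO or MlklKO, with 8 and 7 at an unadjusted p under 0.05, and 2 passed for Ripk3KO with only the compared groups fitted. In the MlklKO by CD-LFD interaction 4 were higher, led by Gls2 (1.33 ± 0.27) and Siva1 (0.97 ± 0.31), and 1 lower, Trp53. Siva1 was lost in 16 of 22 fits without 1 library, with the clock class as a term (0.86, adjusted p = 0.0995), with no count filter (0.159), with only the compared groups fitted (0.0658) and without WT control replicates 5 and 6 (0.0565). In the MlklKO by CD-HFD interaction Plk2 was higher (0.91 ± 0.26, adjusted p = 0.0381) and Trp53 lower. Plk2 was lost in 10 of 21 fits without 1 library and under each of those 4 alternatives, in the low clock class and without the 2 libraries in doubt (0.38 to 0.90, adjusted p of 0.0567 to 0.478). Without 1 library, the 5 calls for CD-LFD became as few as 2 and the 2 calls for CD-HFD moved between 0 and 6. The 5 were 3 with the clock class as a term and 2 with no count filter or only the compared groups, and the 2 were 5 with DESeq2, 6 without WT control replicates 5 and 6 and 0 with only the compared groups. For Ripk3KO 0 of 60 passed in either interaction by edgeR or DESeq2, with 5 (CD-LFD) and 7 (CD-HFD) at an unadjusted p under 0.05. The 0 for CD-HFD became 1 without WT control replicate 6 or Ripk3KO control replicate 1, and 2 without WT control replicates 5 and 6.

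The scaling of libraries set how many members passed. With library size only, without TMM, the median gene moved by 0.43 on the log2 scale on CD-HFD in WT, and 6813 genes were higher and 1020 lower, against 3496 and 3586 with TMM. All 10 members were then called higher. Relative to that median, Mdm2 changed by 0.18, Ccng1 by 0.18, Cdkn1a by 2.24 and Phlda3 by 3.47. In Ripk3KO on CD-HFD the median was 0.49 (6870 higher and 737 lower, against 3657 and 3227), with 8 members higher. In MlklKO it was 0.49 (6364 and 727, against 3699 and 3019), with 8 members higher and 0 lower. Aen there was -0.25 (adjusted p = 0.392, edgeR) and lost its call, while relative to the median it was -0.74 under both scalings. The falls of Ulk1 on CD-HFD in all 3 genotypes, of Pltp in MlklKO, of Rchy1 and Ulk1 between diets in WT, of Plk3 between diets in Ripk3KO and of Fas and Tigar between diets in MlklKO also did not pass with size-only scaling. Mdm2 turned from -0.05 to 0.49 (adjusted p = 0.0107, edgeR) in Ripk3KO on CD-HFD, which is 0.0049 relative to the median.

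On CD-LFD, the median log2 change with size-only scaling was 0.27 in WT (4142 higher and 737 lower, against 2040 and 2077). It was 0.32 in Ripk3KO (3910 and 513, against 2075 and 1501) and 0.20 in MlklKO (3733 and 1913, against 2925 and 2713). Between CD-LFD and CD-HFD the median was 0.18 in WT (3058 higher and 500 lower, against 2040 and 1100). It was 0.24 in Ripk3KO (1360 and 171, against 854 and 458) and 0.41 in MlklKO (4776 and 387, against 2164 and 1359). Against WT on control it was -0.16 in Ripk3KO (229 and 722, against 334 and 331) and -0.12 in MlklKO (1618 and 2451, against 1932 and 2097). On CD-LFD it was -0.11 for Ripk3KO (69 and 74, against 118 and 46) and -0.23 for MlklKO (148 and 725, against 243 and 138). On CD-HFD the split for Ripk3KO was 22 and 42, against 31 and 25. In the MlklKO by CD-LFD interaction the median moved to -0.11 (387 and 1108, against 649 and 607), with the same count of 3 members lower. The rises of Phlda3 and Eda2r on CD-HFD in all 3 genotypes, and of Cdkn1a in WT and Ripk3KO, passed under both scalings and with RLE size factors.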

How the data were processed

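Liver RNA-seq of 44 mouse libraries was analysed from 1 table of raw counts per Ensembl gene that the authors deposited. Libraries were strand-specific per the labels' protocols, and the submitters' processing notes name FastQC, STAR, HTSeq, edgeR, limma and the build GRCm39, without versions. The strand setting of the counting is not given in the sources used here. Symbols came from GENCODE M21 (34373 identifiers matched, 876 did not). Genes passing filterByExpr (minimum count 10) were scaled by TMM and tested with edgeR 4.0.16 (quasi-likelihood F test, R 4.3.3) in 1 model of 9 group means, for 19 contrasts (9 diet, 6 knockout, 4 interactions), with Benjamini-Hochberg adjustment within each and a threshold of 0.05. SE is the log2 change over the square root of F. No columns lacked a sample. Total counts of 2476268 to 88204703 limit the precision for rare genes, and the labels name no molecular identifiers for telling PCR copies apart. No pair of libraries in a group agreed within sampling noise. The fit was checked on simulated data.

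The members and lists were chosen with earlier results of these data known. All members are named. From the other p53 pathway lists, the called genes with the largest changes and a mean log2 CPM of at least 1 are named, up to 4 in each direction for CD-HFD in WT and the knockouts on control, and 2 elsewhere, with Trp53, Mdm4 and Gadd45a always given. Alternatives were RLE factors, library size only, no filter, DESeq2 1.42.0, a robust fit, only the compared groups, a replicate block, a clock class covariate, and leaving out single libraries, WT control replicates 5 and 6, or the 2 knockout libraries with a high targeted gene. The low clock class alone was added after seeing the data. The genes most alike to Bax are not reported here.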

Additional observations from a re-analysis of the deposited data

Results flagged for a closer look

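Of 70 sets of member values in groups of 4 to 6 libraries, 3 had a library far from the rest, and chance gives about 1 in 20. Trp53inp1 in WT CD-LFD replicate 1 was 220.0 CPM, with the next library at 136 CPM, and the group mean of 138 CPM is 122 CPM without it. Phlda3 in WT CD-HFD replicate 6 was 16.8 CPM, with the next at 11.6 CPM, and the mean of 11.8 CPM is 10.8 CPM without it. Aen in MlklKO control replicate 6 was 14.6 CPM, with the next at 28.7 CPM, and the mean of 29.7 CPM is 32.7 CPM without it.

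Of 40 interaction tests of the members over both knockouts, 4 were called (edgeR), all of them for MlklKO against WT. For CD-LFD these were Cdkn1a (-2.04), Aen (-1.07) and Zmat3 (-0.85) on the log2 scale, beside 8.45% of all genes called. For CD-HFD the call was Aen (-1.15), beside 4.12% of all genes. As given above, the Zmat3 call was lost without any 1 of several libraries. That of Aen on CD-HFD was lost without MlklKO CD-HFD replicate 2 or 4.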

How the results depend on the processing

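Under 11 alternatives and with each of 44 libraries left out in turn, 4179 member values were recomputed. Of these, 4018 kept their call and direction, 47 lost the call, 113 gained one and 1 reversed, which was Mdm2 on CD-HFD in Ripk3KO with library size only (0.49 against -0.05). Counts of members called moved most with library size only, to 10 on CD-HFD and 7 on CD-LFD in WT, 8 and 4 in Ripk3KO, 8 on CD-HFD and 6 between CD-HFD and CD-LFD in MlklKO, and 1 for MlklKO against WT on CD-LFD. By its construction this scaling also moves the median gene. With only the compared groups fitted, the counts were 5 on CD-HFD and 1 between diets in Ripk3KO, 5 and 4 in MlklKO, and 1 for Ripk3KO against WT on CD-LFD. For MlklKO on CD-HFD the count was 6 with RLE factors and 6 with DESeq2, against 3. DESeq2 called 2 for Ripk3KO against WT on CD-LFD. With no count filter the count was 1 there and 1 between diets in MlklKO. It was 4 on CD-LFD in WT without WT control replicates 5 and 6, and 1 between diets in WT with the clock class as a term. In the low clock class alone, chosen after seeing the data, it was 5 on CD-HFD in MlklKO and 1 for MlklKO against WT on control. The cause of these moves was not tested.

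Leaving out 1 library gave 1 to 3 members between CD-HFD and CD-LFD in WT, 1 to 3 on CD-LFD and 0 to 1 between diets in Ripk3KO, 3 to 5 on CD-HFD and 1 to 3 between diets in MlklKO, and 0 to 2 in the MlklKO by CD-HFD interaction. Same-numbered libraries of different groups had a median correlation of deviations of -0.01, against -2.2e-05 for different numbers. Of the same-numbered pairs 28.8% were over 0.1, a share not computed for the others. Replicate numbers thus showed no pairing in the median, and pairing within some groups was not tested. With the replicate block, Ripk3KO against WT on CD-LFD had 1 member called against 0, and no other count of members moved by over 1.5 times. Rare genes such as Eda2r, at 0 to 5 counts in WT control libraries, are limited by depth.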
